A study of Mus musculus with 10 samples.

Results

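Genes on proximal chromosome 6, beyond the Dlx5/6 locus, were examined in the medial ganglionic eminence (MGE) of Evf2 mutant mouse embryos: Akr1b8, Rbm28, Lsm8, and a joint entry for Glcci1 and Umad1. They were taken by symbol from the authors' deposited table of 96 Affymetrix probe sets that differ between mutant and wildtype, and each of the 4 entries had 1 probe set there. The members are therefore 4 of the 45037 probe sets measured. Because the table kept only probe sets past a corrected p of 0.05 and a 2-fold difference between the genotypes, the genotype differences below were used in the choice and are given as a description, without a test. The table writes Lsm8 as Naa38, an older name; the Entrez number identifies it as Lsm8, and the gene that carries the name Naa38 today lies on another chromosome. It writes Umad1 as Gm16039. The value of the joint probe set belongs to neither Glcci1 nor Umad1 singly.

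The mutant embryos were Evf2TS/TS homozygotes, which lack the long non-coding RNA Evf2 through an inserted stop of its transcription, and they were set against wildtype (Evf2+/+) embryos. Both groups were dissected at E13.5 and shared a mixed background of 129Sv, Bl6 and Fvbn; the labels do not give the share of each strain in a pool or the haplotype around the locus. Total RNA came from 5 pools of each genotype, each pool holding 4 MGE of 2 embryos, so no value belongs to a single embryo. Mutant pools were 2 female and 3 male, and wildtype pools 3 female and 2 male.

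The MGE is the part of the ventral forebrain that gives rise to many GABAergic interneurons, and Dlx5 and Dlx6 are homeodomain transcription factors of their precursors. Evf2 is transcribed from an enhancer between these genes, across the Dlx6 gene on the opposite strand. The study asked whether genes far along the same chromosome differ when this RNA is lost. Akr1b8 is an aldo-keto reductase, an enzyme that reduces aldehydes. Rbm28 is a nucleolar RNA-binding protein whose yeast relative serves the assembly of the large ribosomal subunit. Lsm8 is the subunit that sets the nuclear LSM ring apart from the cytoplasmic one; the nuclear ring binds U6 small nuclear RNA in the spliceosome. Glcci1 was named as a transcript induced by glucocorticoids, and Umad1 for a domain found in proteins of endosomal sorting.

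The start regions of the 3 singly named genes and of Umad1 are shown so that their base composition can be read. Each is the RefSeq promoter window (GRCm38.p6) from 250 bases before to 50 bases after the gene's start, 5′ to 3′ on the gene's strand, with CG dinucleotides in capitals. The windows are those of Akr1b8 (chr6:34353896-34354195, plus strand), Rbm28 (chr6:29164675-29164974, minus strand), Lsm8 (chr6:18848385-18848684, plus strand) and Umad1 (chr6:8259038-8259337, plus strand).
Akr1b8: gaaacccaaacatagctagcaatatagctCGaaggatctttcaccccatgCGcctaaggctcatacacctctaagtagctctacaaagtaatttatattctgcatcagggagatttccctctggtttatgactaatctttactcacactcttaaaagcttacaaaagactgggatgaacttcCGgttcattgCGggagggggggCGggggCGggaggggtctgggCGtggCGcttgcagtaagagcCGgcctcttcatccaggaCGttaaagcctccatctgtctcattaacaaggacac
Rbm28: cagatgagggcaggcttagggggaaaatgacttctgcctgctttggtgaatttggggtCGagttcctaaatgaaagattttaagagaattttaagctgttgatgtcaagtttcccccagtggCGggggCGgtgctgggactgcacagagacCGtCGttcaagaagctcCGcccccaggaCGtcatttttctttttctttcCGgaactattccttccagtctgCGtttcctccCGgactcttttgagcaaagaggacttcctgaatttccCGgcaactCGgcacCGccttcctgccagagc
Lsm8: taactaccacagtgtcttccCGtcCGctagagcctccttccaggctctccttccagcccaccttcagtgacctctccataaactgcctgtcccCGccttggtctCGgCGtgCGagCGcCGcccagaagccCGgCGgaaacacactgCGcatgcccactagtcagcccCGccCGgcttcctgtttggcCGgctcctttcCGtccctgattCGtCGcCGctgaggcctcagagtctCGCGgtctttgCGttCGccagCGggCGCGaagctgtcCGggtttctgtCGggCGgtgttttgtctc
Umad1: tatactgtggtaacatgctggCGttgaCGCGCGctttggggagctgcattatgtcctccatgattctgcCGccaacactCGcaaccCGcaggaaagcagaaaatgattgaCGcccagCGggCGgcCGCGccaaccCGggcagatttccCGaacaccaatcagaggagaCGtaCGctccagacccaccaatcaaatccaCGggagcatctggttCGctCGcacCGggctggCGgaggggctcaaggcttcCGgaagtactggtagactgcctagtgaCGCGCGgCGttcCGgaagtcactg
The windows held 10 CG dinucleotides in Akr1b8, 13 in Rbm28 and 28 in Lsm8. Of the genes that share the joint probe set, whose value belongs to neither singly, Umad1 has 1 window with 27, and Glcci1 has 2, with 50 and 3. The median over all 32851 windows was 7, and 43.5% of windows held at least as many as Akr1b8, against 14.2% for Lsm8. The homeodomain core TAATTA, which reads the same on both strands and so was counted once per place, occurred in none of the windows of Akr1b8, Rbm28, Lsm8, Umad1 and Glcci1. It occurred in both RefSeq windows of Dlx6os1, the gene that holds Evf2, with 2 copies in one and 1 in the other, and in 5.29% of all windows. These counts describe letters in windows of 300 bases and say nothing of binding.

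All arrays had the same trimmed mean signal (150.001 units), array medians lay between 24.2 and 28.3 in mutant and between 23.5 and 29.3 in wildtype pools, and log2 values of each 2 arrays correlated over the probe sets, with r from 0.969 to 0.989 (probe sets are not independent replicates). Mutant replicate 4 lay nearer to wildtype than the other mutant pools: with the mean of its fellow mutant pools set to 0 and the wildtype mean to 1, its median position over the 96 listed probe sets was 0.392, against -0.109 to -0.0798 for the others. Mutant replicate 5 had the highest 3′ to 5′ ratios of the actin (1.41) and Gapdh (0.868) control probe sets; the other pools lay between 1.257 and 1.38 for actin and between 0.822 and 0.862 for Gapdh. Probe sets outside the authors' deposited table carry no gene name here, so none of the 10 MGE markers and none of the 27 markers of other cell types or regions could be read, and the tissue label was not checked against them. In tissue pools, fewer cells of a type and less RNA per cell cannot be told apart.

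Akr1b8 was brighter in every mutant pool than in any wildtype pool, where its probe set was dim. Mutant replicates 1 to 5 read 79.7, 93.8, 91.0, 74.8 and 83.0 signal units, against 13.3, 14.8, 8.22, 8.89 and 8.35 in wildtype replicates 1 to 5. The groups were far apart: the lowest mutant pool lay 60.1 units above the highest wildtype pool. The means were 84.5 ± 7.86 in mutant and 10.7 ± 3.09 in wildtype pools (SD, n = 5 each), a ratio of 7.89, and the authors' deposited table gives a ratio of 4.83 from its own summary of the arrays. The log2 difference, taken throughout on log2(signal + 16) with sex in the fit, was 1.94 ± 0.10 (SE); among all probe sets 0.0533% had a difference at least as large in either direction. A ratio to so dim a level depends on how background was treated, which the files do not state.

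Rbm28 was present in both genotypes and higher in each mutant pool. Mutant replicates 1 to 5 read 340.3, 303, 358, 223 and 439.6, against 100.1, 159.9, 172, 134 and 141 in wildtype replicates 1 to 5. The groups did not overlap, but mutant replicate 4 stood only 50.7 units above wildtype replicate 3. The means were 333 ± 79.1 in mutant and 141 ± 27.6 in wildtype pools, a ratio of 2.35 and a log2 difference of 1.13 ± 0.18. Rbm28 lay near the limit of the table: its ratio in the authors' deposited table was 2.07, and the smallest ratio listed there was 2.01.

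Lsm8 was lower in each mutant pool than in any wildtype pool. Mutant replicates 1 to 5 read 10.4, 28.4, 22.9, 105 and 19.8, against 168, 190.0, 207, 189 and 181 in wildtype replicates 1 to 5. Replicates 1, 2, 3 and 5 were dim, mutant replicate 4 lay between them and wildtype, and no pool of one genotype reached the other. The means were 37.4 ± 38.6 in mutant and 187 ± 14.4 in wildtype pools, so the wildtype mean was 5.00 times the mutant mean; the log2 difference was -2.22 ± 0.32. The authors' deposited table gives -2.73, rank 9 by size among its 96 probe sets.

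The joint Glcci1/Umad1 probe set was also lower in mutant MGE. Mutant replicates 1 to 5 read 29.4, 20.1, 21.4, 55.7 and 17.2, against 70.1, 79.9, 76.7, 65.0 and 74.1 in wildtype replicates 1 to 5. The groups came close, with 9.27 units between mutant replicate 4 and wildtype replicate 4. The means were 28.8 ± 15.7 in mutant and 73.1 ± 5.80 in wildtype pools, a log2 difference of -1.06 ± 0.19, against -1.76 in the authors' deposited table. Mutant and wildtype pools did not overlap for any of the 4 members; this held for 3.07% of all probe sets, and since the members were chosen on this contrast their count says nothing further. Of all probe sets, 0.535% passed limma's adjusted threshold for genotype.

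**Figure D1:**
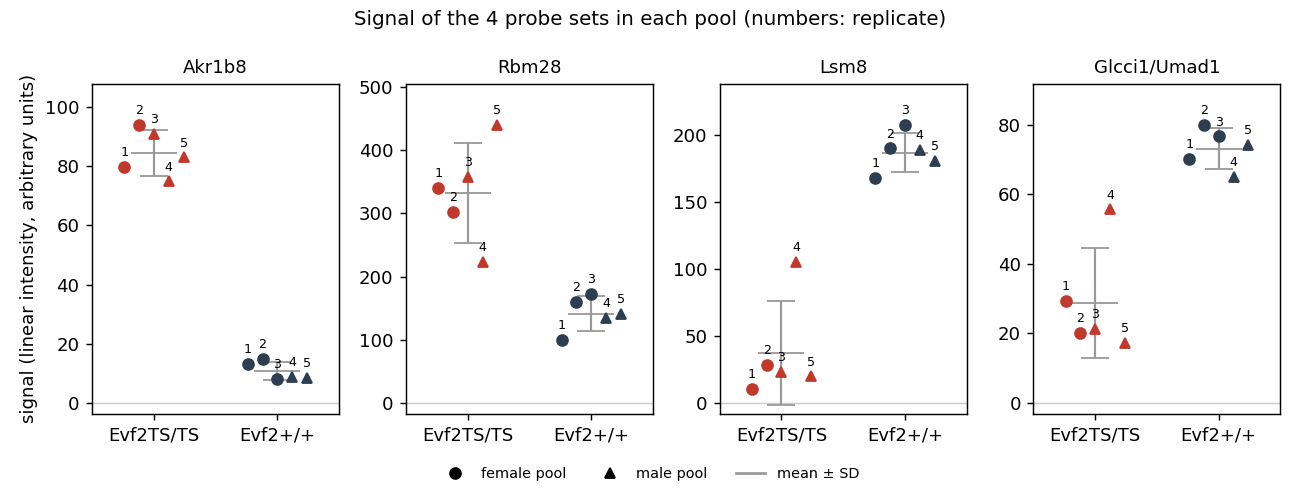
Signal (linear intensity, arbitrary units) of the 4 probe sets in each Evf2TS/TS and Evf2+/+ pool; circles are female and triangles male pools, numbers are replicates, and grey bars give the mean and SD (n = 5 each). The genotypes do not overlap in any panel, and mutant replicate 4 is the mutant pool nearest to wildtype in all 4.

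By alignment start in the table, whose genome build is not named, the joint probe set lay on chromosome 6 at 8408164 to 8409470 (plus strand), Lsm8 at 18804513 to 18805767 (plus strand), Rbm28 at 29073572 to 29105445 (minus strand) and Akr1b8 at 34304118 to 34318455 (plus strand). Counted from the start of Dlx6 these are 1.59, 11.99, 22.3 and 27.5 Mb. The positions are printed as given and cannot be set against the GRCm38.p6 promoter windows above. Those of Lsm8 and Akr1b8 lie before the windows of their own genes. Among listed probe sets with a single alignment, the next on the chromosome beyond Akr1b8 was that of A2m at 114.8 Mb. In the RefSeq gene order, 8 protein-coding genes start between Dlx6 and Umad1, 36 between Dlx6 and Lsm8, 73 between Dlx6 and Rbm28 and 116 between Dlx6 and Akr1b8. Of the 116, Lsm8 and Rbm28 have a probe set of their own in the authors' deposited table, and Umad1 and Glcci1 share the joint one; whether the other genes changed could not be read without names. Names were given only for the 96 probe sets in that table, of 45037 measured, and these hold 58 distinct current symbols. Of 24 further genes listed as neighbours 0 had a named probe set of their own there. Of 17 genes listed for the locus 2 did, Dlx6 and Dlx6os1, and Umad1 and Glcci1 share the joint one. The neighbours of Akr1b8 in this order are Akr1b3 and Akr1b10, related reductases. Of the 14 aldo-keto reductases looked for, 1, Akr1b8 itself, had a named probe set of its own in the authors' deposited table. The same held for the LSM proteins, with Lsm8 the 1 of 13 named. Akr1b8 and Lsm8 are there by the choice of members, and genes without a listed probe set could not be read. Nothing is therefore read from these counts.

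Direction changed along the chromosome in runs. The 2 nearer members were lower in mutant MGE, and the 2 farther members, Rbm28 and Akr1b8, were higher. Dlx6 itself was higher (1.16 ± 0.17). Which of the 4 members differed most depended on the measure: on the log2(signal + 16) scale it was Lsm8 (-2.22, against 1.94 for Akr1b8). Lsm8 also came first at pseudocount 64 (-1.41, against 1.0005 for Akr1b8) and in the authors' deposited table (-2.73, against 2.27). By the ratio of means (7.89 for Akr1b8, 5.00 for Lsm8 as wildtype over mutant), at pseudocount 1 (2.95 and -2.84) and, by a margin far below the SE, without mutant replicate 1 (1.992 and -1.989), it was Akr1b8. The table lists 3 further probe sets within 30 Mb of Dlx6, without a current gene symbol, and each had the direction of the member nearest to it. The probe set 1429344_at, 0.425 Mb before Lsm8, was lower (-1.01 ± 0.15). The probe set 1440320_at, 0.937 Mb beyond Rbm28, was higher (1.49 ± 0.25), and 1445111_at, 0.881 Mb before Akr1b8, was also higher (1.04 ± 0.14). These too were chosen by the authors for their genotype difference, so the runs are a description of 8 listed probe sets, 5 higher and 3 lower. Only the 82 of 96 listed probe sets with a single alignment could be placed. The probe set of Dlx6os1 (Evf2) had none and is left out of these counts, though its gene lies at the Dlx6 locus. It was lower (-4.07 ± 0.28). The probe sets 1440320_at and 1445111_at read 80.2 ± 40.9 and 23.4 ± 8.29 signal units in mutant pools, against 19.2 ± 7.96 and 2.74 ± 1.76 in wildtype pools, where both were dim.

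**Figure D2:**
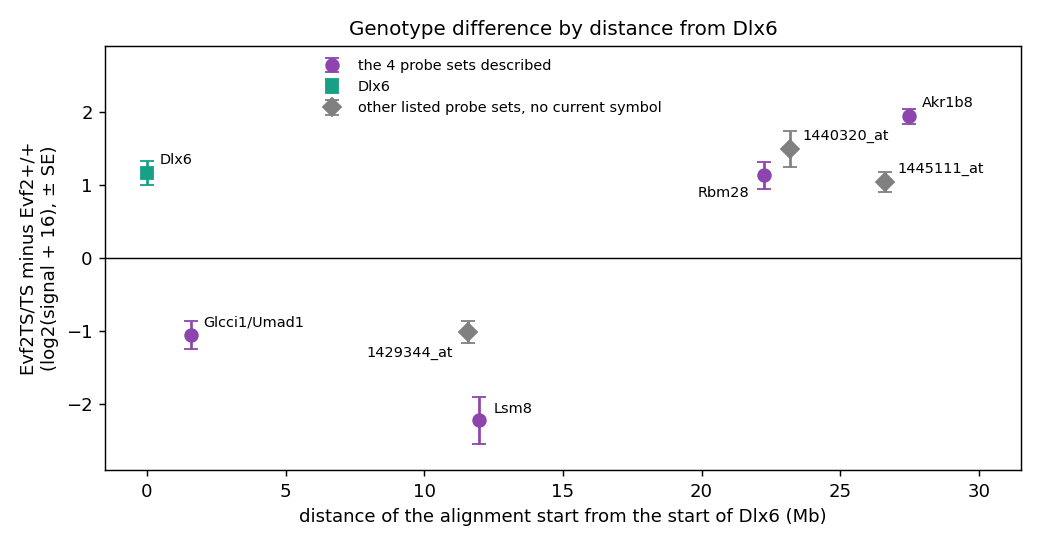
Log2 difference (mutant minus wildtype, ± SE) of the 8 listed probe sets on proximal chromosome 6 against the distance of their alignment start from that of Dlx6 in Mb. Points near 2 to 12 Mb are below 0 and points beyond 22 Mb are above 0, with Dlx6 itself above 0. Dlx6os1 (Evf2), without a single alignment, is not shown.

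Agreement among mutant pools was poorer for the 2 members nearer to Dlx6 than for the 2 farther ones. Among mutant pools the coefficient of variation was 9.31% for Akr1b8, 23.8% for Rbm28, 54.6% for the joint probe set and 103% for Lsm8. Among wildtype pools it was 28.9% for Akr1b8, where the signal was dim, 19.5% for Rbm28, 7.93% for the joint probe set and 7.69% for Lsm8. The medians over probe sets with a mean signal of at least 50 were 12.4% in mutant and 11.2% in wildtype pools. The members that were lower in mutant MGE were thus even among wildtype pools and uneven among mutant pools. These were also the 2 members dim in mutant pools (medians 21.4 and 22.9), so distance, direction and dim signal cannot be told apart. The other listed probe sets did not follow distance. Their coefficient of variation among mutant pools was 25.3% for Dlx6, 43.2% for 1429344_at, 51.0% for 1440320_at at 23.2 Mb and 35.5% for 1445111_at at 26.6 Mb. Set against the SD of log2 values among mutant pools, the genotype difference was 17.2 SD for Akr1b8, 3.31 for Rbm28, 2.65 for Lsm8 and 2.37 for the joint probe set. This order depends on the choice of mutant pools for the SD. The SD among wildtype pools was 0.102 for Lsm8, 0.0951 for the joint probe set, 0.164 for Akr1b8 and 0.268 for Rbm28. Set against these, Lsm8 would come first. Either order uses the contrast that chose the members.

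The unevenness was smaller without 1 pool: leaving out mutant replicate 4, the coefficient of variation among mutant pools was 37% for Lsm8, 23.7% for the joint probe set, 16% for Rbm28 and 7.62% for Akr1b8. On the log2 scale, mutant replicate 4 stood at 0.748 of the way to wildtype for the joint probe set, 0.705 for Lsm8 and 0.508 for Rbm28, but at 0.0908 for Akr1b8. Akr1b8 positions of the other mutant pools ran from -0.0875 to 0.0429. Among the unnamed neighbours mutant replicate 4 stood at 0.579 for 1429344_at and at -0.0281 for 1440320_at, and Dlx6os1 (Evf2) at -0.0356. The pool thus differed from the other mutant pools at some of these probe sets and not at others on the same chromosome; what sets it apart was not tested. Without it the log2 differences were -2.51 for Lsm8, -1.22 for the joint probe set, 1.25 for Rbm28 and 1.96 for Akr1b8.

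**Figure D3:**
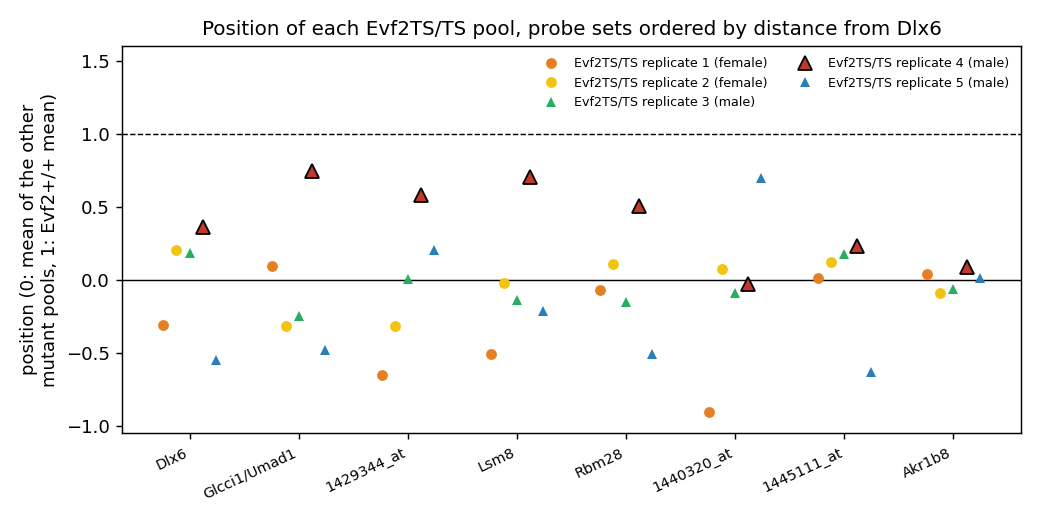
Position of each mutant pool on the log2 scale, where 0 is the mean of its fellow mutant pools and 1 (dashed) the wildtype mean, for 8 listed probe sets ordered by distance from Dlx6. Mutant replicate 4 (outlined) is highest at Dlx6, Glcci1/Umad1, 1429344_at, Lsm8, Rbm28, 1445111_at and Akr1b8, but spans 0.0908 at Akr1b8 to 0.748 at Glcci1/Umad1.

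How the members varied together was also different without this pool. Deviations from the genotype means over the 10 pools correlated at r = 0.77 between Lsm8 and the joint probe set, at -0.58 between Lsm8 and Rbm28, and at -0.59 between Rbm28 and the joint probe set. Without mutant replicate 4 these were -0.55, 0.15 and 0.02 over 9 pools. Akr1b8 correlated with the joint probe set at -0.38, with Lsm8 at -0.29 and with Rbm28 at 0.02, and without that pool at -0.04, 0.24 and -0.36. These are descriptions of 10 arrays, and the points share array and scaling.

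Among the 64 listed probe sets with a current symbol, those whose deviations were most like the members' lay on other chromosomes with the exception of Ccnd2. Most candidates lie on other chromosomes: of the 82 listed probe sets with a single alignment, 11 are on chromosome 6. Nothing is therefore read from the chromosomes. The joint probe set and the unnamed ones were not among the candidates. Lsm8 was most like Galc, a lysosomal galactosylceramidase on chromosome 12 (r = 0.95 over 10 pools), 4833420G17Rik (0.92) and Tmem267 (0.92), both on chromosome 13. The joint probe set was most like Cuedc1 on chromosome 11 (0.94), Efcab11 on chromosome 12 (0.91) and Tmem267 (0.91). Without mutant replicate 4, Lsm8 kept 0.49, 0.22 and 0.21 with its 3, and the joint probe set 0.80, 0.59 and 0.31, so most of these values rest on that pool. Rbm28 was most like Gnb1, a G protein beta subunit on chromosome 4 (0.91, and 0.84 without that pool), Ildr2 on chromosome 1 (0.81 and 0.62) and Mtrex, an RNA helicase of the nuclear exosome on chromosome 13 (0.78 and 0.58). Akr1b8 was most like the protocadherin Pcdhb9 on chromosome 18 (0.88 and 0.86), Paip1 on chromosome 13 (0.65 and 0.56) and the cyclin Ccnd2, on distal chromosome 6 (0.61 and 0.50).

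Sex was not used to choose the members and could be tested. The authors' corrected p for genotype can still favour probe sets with little spread within a genotype. A difference by sex adds to that spread, so the shares over all probe sets are not a like background. Over both genotypes, none of the 4 differed between male and female pools in limma (adjusted p of 0.977 for Akr1b8 and Lsm8, 0.9993 for the joint probe set and 0.9998 for Rbm28); 0.0266% of all probe sets did. At an unadjusted p under 0.05 it was 0 of 4 members and 4.91% of all probe sets. The log2 difference, male minus female, was -0.12 for Akr1b8 (95% interval -0.34 to 0.11) and -0.00025 for Rbm28 (-0.41 to 0.41). For the joint probe set it was 0.02 (-0.40 to 0.44), and -0.14 without mutant replicate 4. The interval was widest for Lsm8, at 0.33 (-0.37 to 1.03), and without mutant replicate 4, a male pool, the Lsm8 estimate was 0.043 with an SE of 0.15.

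The genotype difference had the same direction in both sexes for 4 of 4 members, as it did for 56.6% of all probe sets; the members were chosen for their difference over both sexes, so nothing is read from this count. Akr1b8 was higher in mutant MGE by 2.00 in males and 1.87 in females (SE 0.15), and Rbm28 by 1.16 and 1.11 (SE 0.27). Lsm8 differed by -1.86 in males and -2.57 in females (SE 0.45), and the joint probe set by -0.94 and -1.18 (SE 0.28). Mutant replicate 4 is a male pool: the male mutant mean of Lsm8 was 49.4 signal units with it, against 19.4 in female mutant pools, and the wildtype means were 185 in males and 188 in females. The difference of the genotype effect between the sexes did not pass in limma for any member (adjusted p = 0.999 for each), and 0% of all probe sets passed; at an unadjusted p under 0.05 it was 0 of 4 members and 3.87% of all probe sets. Its 95% intervals, male minus female effect, were -0.34 to 0.60 for Akr1b8, -0.80 to 0.92 for Rbm28, -0.64 to 1.12 for the joint probe set and -0.69 to 2.12 for Lsm8. Without mutant replicate 4 the estimate for Lsm8 was 0.14, against 0.71 with it.

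**Figure D4:**
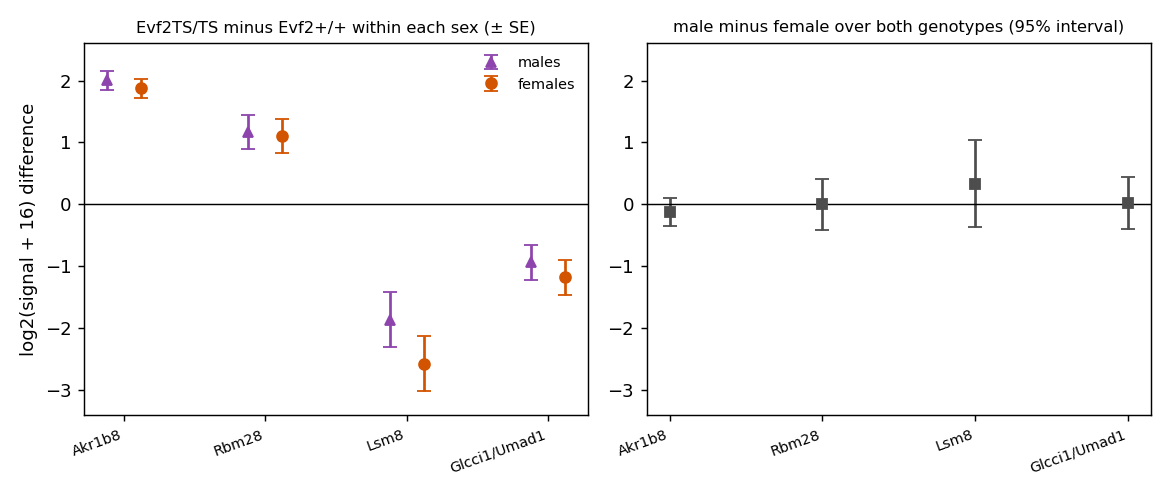
Left, log2 difference between mutant and wildtype within male (triangles) and female (circles) pools, ± SE; right, male minus female over both genotypes with 95% intervals. Each member has the same sign in both sexes, and each interval on the right includes 0.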

How the data were processed

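RNA of 10 MGE pools was measured on Affymetrix Mouse430_2 arrays. The authors deposited 1 linear intensity per probe set and array; the software and background treatment are not given in the sources used here. Per the file headers, the authors' deposited table of 96 probe sets gives a ratio (absolute fold change), a signed fold score, a log2 fold change and mean levels per genotype, from another summary (its wildtype levels were 1.76 times those of the value table, as a median).

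All 45037 probe sets left after 64 controls were fitted as log2(intensity + 16) with limma 3.58.1 (R 4.3.3; lmFit, eBayes) on genotype and sex, with 2-sided p-values adjusted by Benjamini-Hochberg and a threshold of 0.05. A second fit with 1 mean for each combination of genotype and sex gave the within-sex effects and their contrast. The pseudocount makes fold changes of dim probe sets smaller. The fit was tested on simulated data with normal noise, with changes set in 200 probe sets per contrast, all of mean signal above 50. Changes of 1.5 log2 for genotype and sex, and of 3.0 for their contrast, were recovered in 99.0%, 99.5% and 100%. False calls numbered 8, 5 and 12. Smaller changes and dimmer probe sets were not covered. The pools are separate samples in the labels, so p-values measure the spread between pools; no detection calls were used, and the number of arrays limits the precision.

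Members, gene lists and tests were chosen with earlier results of these data known. Named were the members, Evf2 and Dlx6, listed probe sets within 30 Mb, and for each member the 3 listed probe sets most like it in deviations from the genotype means; A2m was named as the next probe set beyond the window after its value was seen. Current symbols came from RefSeq (GRCm38.p6) by Entrez number. Equal replicate numbers were not taken as pairs: deviations of same-numbered pools correlated at r between 0.00604 and 0.0404. Those of differently numbered pools were not computed, so pairing was not tested. Alternatives changed the pseudocount, scaling, filter, sex term, variance model, weights and block, and left out each pool in turn.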

Additional observations from a re-analysis of the deposited data

Results flagged for a closer look

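A pool was called far from the others in its group of 5 when its gap to the nearest pool exceeded 0.71 of the group's range. Of 18 groups, from the listed probe sets on proximal chromosome 6 and that of Dlx6os1 (Evf2), 3 held such a pool. The share over all probe sets was not computed, so nothing is read from this count. The Lsm8 signal was 105 in mutant replicate 4 and between 10.4 and 28.4 in the remaining mutant pools. The unnamed probe set 1445111_at was at 37.8 in mutant replicate 5 and between 17.6 and 22.6 in the remaining ones. In mutant replicate 1 the signal of Dlx6os1 (Evf2) was 58.1, where the remaining mutant pools lay between 9.47 and 16.5; in that pool Lsm8 was at its lowest mutant level (10.4) and Akr1b8 (79.7) lay inside the mutant range. What sets these pools apart was not tested.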

How the results depend on the processing

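Akr1b8 stayed higher, Rbm28 higher, Lsm8 lower and the joint Glcci1/Umad1 probe set lower in mutant MGE in all settings run; a filter on a mean signal of at least 50 left Akr1b8 out. Sizes moved with the pseudocount: pseudocount 1 gave 2.95 for Akr1b8, -2.84 for Lsm8 and -1.45 for Glcci1/Umad1, pseudocount 64 gave 1.0005, -1.41 and -0.58, and the authors' deposited table gave 2.27 for Akr1b8 and -1.76 for Glcci1/Umad1. Leaving out each pool in turn gave 1.90 to 1.99 for Akr1b8, 1.04 to 1.25 for Rbm28, -2.51 to -1.99 for Lsm8 and -1.22 to -0.96 for Glcci1/Umad1.

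No sex result of a member passed in any setting. Male minus female changed sign with the replicate block for Glcci1/Umad1 (-0.32), Lsm8 (-0.47) and Akr1b8 (0.28), and for Rbm28, which lay near 0, at pseudocount 64 (0.0013), with median centring (0.042) and with quantile normalization (0.00062). The numbers were not taken as pairs, and the block left the genotype directions as they were. With the block, male minus female rests on replicate 3, the only number whose pools differ in sex. Its SE was then 0.48 for Glcci1/Umad1, 0.69 for Lsm8 and 0.24 for Akr1b8, against 0.19, 0.32 and 0.10 in the main fit. Without single pools male minus female ran from -0.14 to 0.11 for Glcci1/Umad1 and from -0.096 to 0.12 for Rbm28. The difference of the genotype effect between the sexes changed sign for Rbm28 with median centring (-0.014) and array weights (-0.11); without single pools it ran from -0.14 to 0.32 for Rbm28 and from -0.10 to 0.45 for Glcci1/Umad1. Where a group of one genotype and sex was left with 1 pool, that pool was assumed to vary like the others.

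The count of all probe sets called for genotype (241) was 55 at pseudocount 1, 373 with an intensity trend, 375 with array weights and 39 with the replicate block, and ran from 72 (without mutant replicate 1) to 259 without single pools; wildtype replicates 2, 4 and 5 and mutant replicates 2 and 3 gave 133, 96, 108, 141 and 140. Male minus female gave 12 calls, 2 with the block. Groups did not overlap for 1382 probe sets, 890 with the filter, which tests fewer, and 1731 to 2555 with 1 pool fewer, which makes overlap rarer; the largest counts were without mutant replicate 5 (2555), wildtype replicate 3 (2178) and wildtype replicate 1 (2096). The number of arrays limits all of these.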
